A study of Mus musculus with 15 samples.

Results

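The p38 MAP kinase pathway was followed through 10 genes, picked by their symbols from the 36144 genes of the expression table and read in all 15 libraries. They were Map3k5, Map2k3, Map2k6, the 4 p38 kinase genes Mapk14 (p38α), Mapk11 (p38β), Mapk12 (p38γ) and Mapk13 (p38δ), the substrate kinase genes Mapkapk2 and Mapkapk3, and Dusp1. The study captured lumbar (L1 to L3) motor neurons, back-labelled with cholera toxin subunit B, by laser from spinal cords of mice at postnatal day 6, and sequenced their poly(A) RNA. Its 5 groups had 3 biological replicates each, all on the FVB background and all carrying the human SMN2 and SMNΔ7 transgenes. WT mice were Smn+/+;SMN2;SMNΔ7 littermates given vehicle, and SMA mice, a model of spinal muscular atrophy, were Smn-/-;SMN2;SMNΔ7 and given vehicle. The other 3 groups had the SMA genotype. SMA+MW150 received MW150, an inhibitor of p38α that enters the brain, at 5 mg/kg. SMA+Pifithrin-alpha received the p53 inhibitor Pifithrin-alpha at 2.2 mg/kg, and SMA+SMN-C3 received SMN-C3, which shifts SMN2 splicing toward full-length transcripts, at 3 mg/kg. Injections were daily and intraperitoneal from postnatal day 0, and both sexes were used in equal proportions.

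The p38 pathway is a kinase relay: stress activates MAP3 kinases such as ASK1 (Map3k5), these activate the MAP2 kinases MKK3 and MKK6 (Map2k3, Map2k6), and these phosphorylate a p38 kinase on a threonine-glycine-tyrosine motif. Active p38α and p38β switch on the kinases MK2 and MK3 (Mapkapk2, Mapkapk3) and, among other proteins, p53, while the phosphatase MKP-1 (Dusp1), an induced gene, removes the activating phosphates again. The relay runs on phosphorylation, and MW150 acts on the p38α protein, so the RNA levels given here describe the supply of its components and not their activity, which was not analysed here.

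Sequence sets out why the 4 p38 genes are kept apart below. The motif phosphorylated by MKK3 and MKK6 is shared by all 4, whereas the gatekeeper codon, which sits at the entrance of the ATP pocket and on which many p38 inhibitors depend, divides them into pairs. The coding sequences came from the GENCODE M21 transcripts (GRCm38), 5′ to 3′, with the motif codons in capitals in the first 4 and the gatekeeper codon in capitals in the last 4.
Mapk14 motif: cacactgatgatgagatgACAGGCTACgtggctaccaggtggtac
Mapk11 motif: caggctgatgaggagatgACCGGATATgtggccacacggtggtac
Mapk12 motif: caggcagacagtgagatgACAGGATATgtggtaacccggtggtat
Mapk13 motif: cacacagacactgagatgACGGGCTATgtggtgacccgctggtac
Mapk14 gatekeeper: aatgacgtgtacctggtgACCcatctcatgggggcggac
Mapk11 gatekeeper: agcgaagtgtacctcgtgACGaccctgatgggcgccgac
Mapk12 gatekeeper: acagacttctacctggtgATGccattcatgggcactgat
Mapk13 gatekeeper: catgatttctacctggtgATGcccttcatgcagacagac
Counted from the start codon, the gatekeeper is codon 106 in Mapk14 and Mapk11, codon 109 in Mapk12 and codon 107 in Mapk13. It is a threonine codon in Mapk14 and Mapk11 and a methionine codon in Mapk12 and Mapk13.

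Mapk14 itself makes transcripts with 1 of 2 alternative ninth exons of the same length, 80 bases, whose use was also read from the libraries. Both lie in the coding part of the gene on the plus strand of chromosome 17 (GRCm38), the upstream exon at chr17:28737011-28737090 and the downstream exon at chr17:28740680-28740759. Aligned base to base, 39 of the 80 bases (48.8%) are the same, and capitals mark the 41 that differ.
Upstream exon: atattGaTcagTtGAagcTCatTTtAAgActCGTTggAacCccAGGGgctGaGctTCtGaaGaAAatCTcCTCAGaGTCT
Downstream exon: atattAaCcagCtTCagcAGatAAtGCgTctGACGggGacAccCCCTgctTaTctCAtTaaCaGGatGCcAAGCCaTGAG

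Each library summed to 1000000 TPM (transcripts per 1000000), and 12311 to 14916 genes reached 1 TPM. The tables hold no counts, so the depth behind a value is unknown. Smn1, the deleted gene, checked the genotypes: its level was 8.97 to 23.3 TPM in the WT libraries and at most 1.498 TPM in every library of the SMA genotype (SMA vs WT log2 change -3.84, limma adjusted p 1.5e-04). Motor neuron markers were present in all libraries (8 of 8 tested), but 2 libraries stood apart: WT 1 gave 21.9% of its TPM to mitochondrial genes and SMA+Pifithrin-alpha 3 gave 20.4%, and in them the summed motor neuron markers were 1441 and 1131 TPM against 2619 to 3508 TPM elsewhere. SMA+Pifithrin-alpha 2 (12.6%) and SMA+SMN-C3 1 (11.3%) followed, and the other 11 libraries lay between 3.76% and 7.55%. Markers of other cells were also detected: astrocyte markers summed to 912 to 2214 TPM, oligodendrocyte lineage markers to 494 to 6501 TPM and microglia markers to 42.3 to 174.8 TPM. In such bulk samples fewer cells of a type and less RNA per cell cannot be told apart. Changes are limma estimates on log2(TPM+1), given with their standard error (SE), and a call means an adjusted p under 0.05 (Benjamini-Hochberg, over the 15425 genes tested). The median gene was not at 0: over everything tested, the median change was 0.24 for SMA vs WT, 0.06 for SMA+MW150 vs SMA, -0.22 for SMA+Pifithrin-alpha vs SMA, -0.23 for SMA+SMN-C3 vs SMA and 0.31 for SMA+MW150 vs WT, and the changes below stand beside these values.

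All 10 genes were detected and passed the low-value filter (at least 1 TPM in at least 3 libraries). Over the 15 libraries Map2k3 had the highest mean (23.8 TPM), ahead of Dusp1 (20.2 TPM), Mapk12 (16.5 TPM), Mapkapk2 (14.3 TPM), Mapk11 (10.8 TPM), Mapk14 (9.49 TPM) and Map2k6 (8.12 TPM). Mapkapk3 (2.62 TPM), Map3k5 (2.06 TPM) and Mapk13 (1.35 TPM) were low, and Mapk13 reached 1 TPM in 9 of 15 libraries. Neighbours in this order overlapped widely: the range was 5.30 to 46.5 TPM for Map2k3 and 12.6 to 33.6 TPM for Dusp1. Mapk14, the MW150 target, ranged from 3.78 TPM in SMA+Pifithrin-alpha 3 to 18.1 TPM in SMA+MW150 3.

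**Figure D1:**
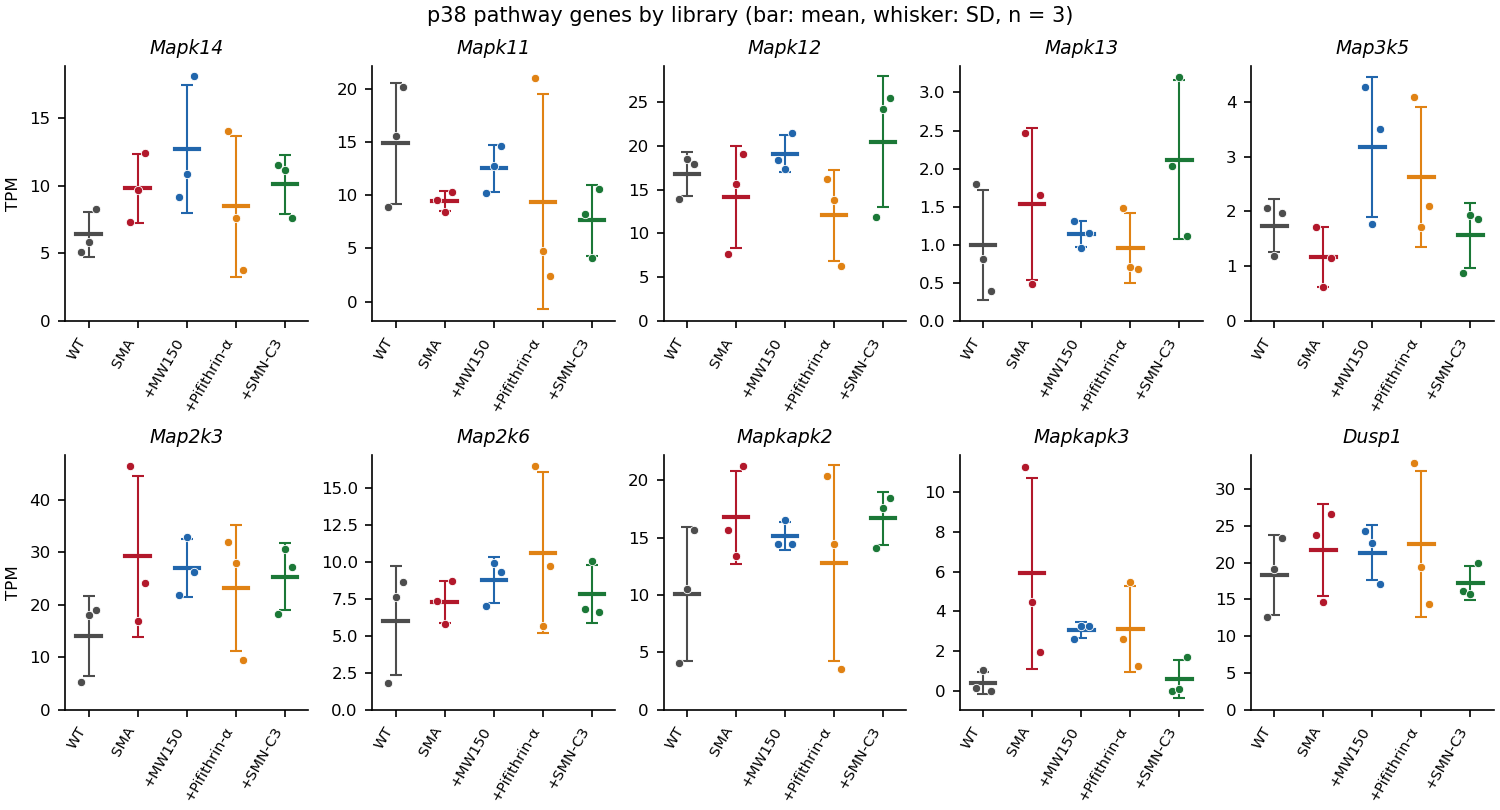
TPM of the 10 p38 pathway genes in each library (points), by group, with the group mean (bar) and SD (whisker, n = 3; a whisker can extend below 0). WT sits lowest on average for Mapk14, Map2k3, Map2k6, Mapkapk2 and Mapkapk3, and the points of most groups overlap for every gene except where the text says otherwise.

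The first comparison asked whether the p38 relay differs at the RNA level in motor neurons that lack mouse Smn. In SMA vs WT, Mapk14 averaged 9.79 ± 2.56 TPM against 6.39 ± 1.67 TPM, Map2k3 29.2 ± 15.4 against 14.1 ± 7.64 TPM, and Mapkapk3 5.92 ± 4.81 against 0.403 ± 0.573 TPM (SD, n = 3 here and below). None of the 10 genes was called by limma, against 0.363% of all tested genes. At an unadjusted p under 0.05 there were 2 of 10 (Map2k3 and Mapkapk3, both higher), against 13.5% of all genes. The groups did not overlap for 1 of 10 (Mapkapk3), against 18.3% of all genes. The log2 change was positive for 7 and negative for 3, with a median of 0.37 beside 0.24 for all genes.

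At the top of the relay, Map3k5 was at 2.06, 1.18 and 1.97 TPM in the WT libraries and at 1.72, 0.628 and 1.16 TPM in SMA. The groups overlapped, with a log2 change of -0.35 (SE 0.38, limma adjusted p 0.647). Map2k3 was at 5.30, 18.0 and 19.0 TPM in the WT libraries and at 46.5, 17.0 and 24.2 TPM in SMA. WT 1 was low and SMA 1 high, and the lowest SMA library lay below 2 of the WT libraries. The log2 change of Map2k3 was 1.06 (SE 0.49, unadjusted p 0.0477, limma adjusted p 0.370). Map2k6, the related MAP2 kinase, was at 1.82 to 8.64 TPM in WT and 5.83 to 8.71 TPM in the SMA libraries (log2 0.41, SE 0.45, limma adjusted p 0.648). Without WT 1 that change turned to -0.15.

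Of the kinases themselves, Mapk14 was at 5.10, 5.81 and 8.28 TPM in the WT libraries and at 7.28, 9.71 and 12.4 TPM in SMA. SMA 2 and SMA 3 lay above all WT libraries and SMA 1 lay below WT 3. Its log2 change was 0.54 (SE 0.40, 95% interval -0.31 to 1.39, limma adjusted p 0.512). Mapk11 was at 8.89, 15.6 and 20.2 TPM in the WT libraries and at 9.52, 8.47 and 10.3 TPM in the SMA libraries (log2 -0.54, SE 0.53, limma adjusted p 0.613). Its SMA libraries were close together, all below WT 2 and WT 3, and SMA 1 and SMA 3 lay above WT 1. Mapk12 was at 13.9 to 18.5 TPM in WT and 7.67 to 19.1 TPM in the SMA libraries (log2 -0.31), and Mapk13 at 0.388 to 1.80 TPM and 0.484 to 2.46 TPM (log2 0.32), with overlapping groups.

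Downstream, Mapkapk3 was at 0.132, 1.06 and 0.0165 TPM in the WT libraries and at 11.3, 4.50 and 1.97 TPM in SMA. Every SMA library lay above every WT library, and the SMA libraries differed several-fold among themselves. The log2 change was 2.13 (SE 0.54, 95% interval 1.0 to 3.27, unadjusted p 9.94e-04, limma adjusted p 0.131), the largest of the 10 in this comparison, and was not called. Leaving out 1 library in turn gave adjusted p from 0.0602 to 0.439. Microglia markers were higher too: their sum was 42.3 to 80.4 TPM in WT and 150 to 174.8 TPM in SMA. Of them 10 of 10 were higher in SMA (1 called), and none was at 0 in every library. Beside this, 66.5% of all tested genes were higher in SMA and 0.363% were called. Astrocyte markers were higher for 7 of 7 and oligodendrocyte lineage markers for 9 of 10 (none called), but their sums overlapped between the groups, at 912 to 1818 TPM in WT and 1588 to 2211 TPM in SMA for astrocytes and 753 to 2285 TPM and 951 to 4683 TPM for the oligodendrocyte lineage. Motor neuron markers were higher for 6 of 8, vascular markers for 4 of 7 tested and spinal interneuron markers for 3 of 4 tested (none called). The part of these cells in the Mapkapk3 values was not tested. Mapkapk2 was at 4.09, 10.5 and 15.7 TPM in the WT libraries and at 15.6, 13.4 and 21.3 TPM in the SMA libraries (log2 0.82, SE 0.49, limma adjusted p 0.434), with WT 1 lowest and the groups overlapping.

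The feedback phosphatase gene Dusp1 was at 12.6, 19.1 and 23.3 TPM in the WT libraries and at 23.7, 14.7 and 26.7 TPM in SMA. The groups overlapped and the log2 change was 0.23 (SE 0.34, 95% interval -0.49 to 0.95, limma adjusted p 0.742), which is about the median change of all genes. It was -0.01 after median-of-ratios scaling.

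**Figure D2:**
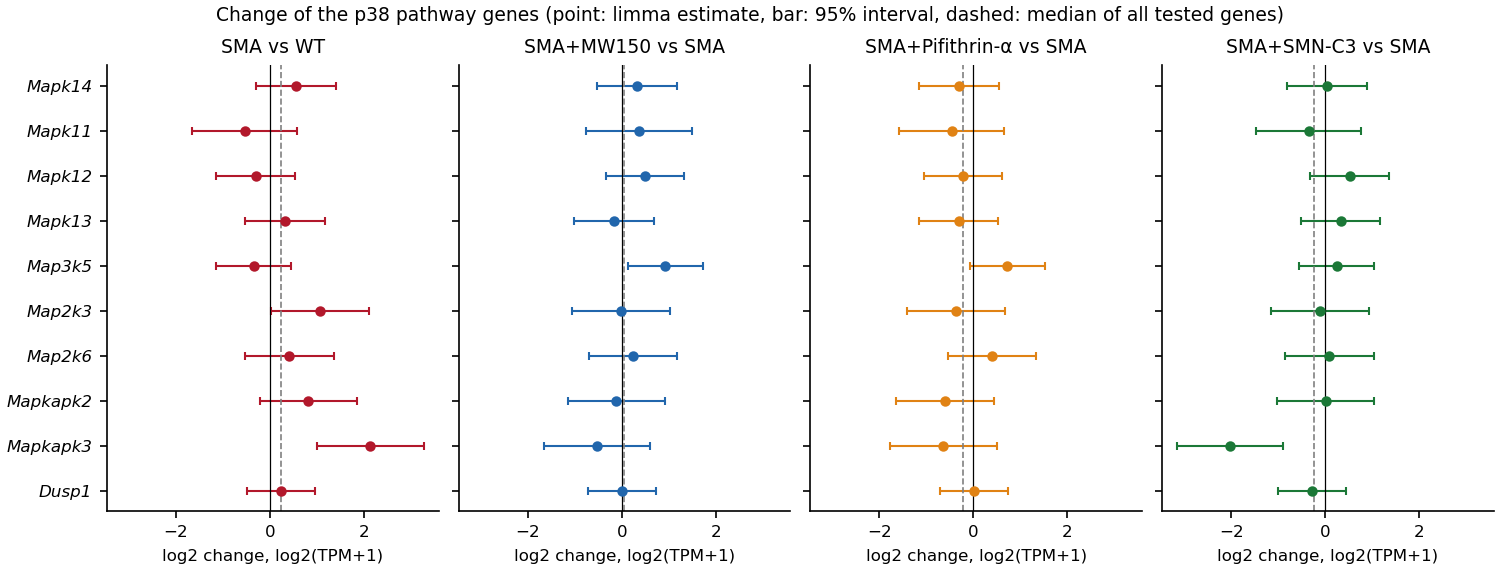
limma log2 change, on log2(TPM+1), of the 10 genes in SMA vs WT and in each treated group vs SMA, with 95% intervals; the dashed line is the median of all tested genes. The interval lies clear of 0 for Mapkapk3 in SMA vs WT (2.13) and SMA+SMN-C3 vs SMA (-2.02), for Map3k5 in SMA+MW150 vs SMA (0.93) and just so for Map2k3 in SMA vs WT (1.06), but none passed the adjusted threshold.

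MW150 was then compared with vehicle in SMA mice, which asks whether blocking p38α went with altered RNA of its own relay. None of the 10 genes was called, against 0.00648% of all tested genes (limma). Map3k5, 1 of 10, had an unadjusted p under 0.05, against 1.90% of all genes, and the same gene was the 1 of 10 whose groups did not overlap, against 10.9% of all genes. Log2 changes were positive for 6 genes and negative for 4, with a median of 0.12 beside 0.06 for all genes.

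Map3k5 was at 4.27, 1.77 and 3.50 TPM with MW150, above the 0.628 to 1.72 TPM of SMA, although the lowest MW150 library exceeded the highest SMA library by little. Its log2 change was 0.93 (SE 0.38, 95% interval 0.12 to 1.73, unadjusted p 0.0262, limma adjusted p 1). The groups did overlap for its leading transcript, Map3k5-201 (log2 0.54, SE 0.46). That transcript was at 3.57, 1.59 and 0.819 TPM with MW150 and at 1.72, 0.329 and 0.934 TPM in SMA. In SMA+MW150 3 the 378-base transcript Map3k5-205 accounted for 2.68 TPM. The MAP2 kinase genes gave log2 changes of -0.01 (SE 0.49) for Map2k3, at 21.9, 33.0 and 26.2 TPM with MW150, and 0.24 (SE 0.45) for Map2k6, at 7.03 to 9.95 TPM.

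Mapk14, the target, was at 9.17, 10.9 and 18.1 TPM with MW150. The first and second of these values lay inside the SMA range and SMA+MW150 3 was the highest of all 15 libraries. The log2 change was 0.32 (SE 0.40, 95% interval -0.53 to 1.17, limma adjusted p 1); the interval takes in both lower and higher levels. Mapk11 was at 10.2, 12.8 and 14.6 TPM (log2 0.37, SE 0.53) and Mapk12 at 18.4, 17.4 and 21.5 TPM (log2 0.49, SE 0.39), in both cases overlapping with SMA. Mapk13 was at 0.961 to 1.31 TPM (log2 -0.16, SE 0.40).

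The readout kinase genes also overlapped with SMA under MW150. Mapkapk2 was at 14.4, 16.6 and 14.4 TPM (log2 -0.12, SE 0.49) and Mapkapk3 at 2.61, 3.27 and 3.29 TPM (log2 -0.53, SE 0.54), the latter inside the SMA range and more even than the SMA libraries. Dusp1 was at 24.2, 22.6 and 17.2 TPM, with a log2 change of 0.01 (SE 0.34, 95% interval -0.71 to 0.72, limma adjusted p 1). All these changes had a limma adjusted p of 1, and a missed threshold does not show that the levels were equal.

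Because TPM is scaled by transcript length, the 4 p38 genes can be set against each other within a library, as shares of their summed TPM. Mapk14 made up 17.1%, 14.3% and 17.7% of the sum in WT and 27.0%, 28.3% and 28.5% in SMA. The SMA values were tightly grouped and all above the WT values, including WT 1 with its high mitochondrial share. The means were 16.4% ± 1.84 and 27.9% ± 0.787, a difference of 11.6 percentage points (exact two-sided permutation test p = 0.1, the smallest that 3 against 3 libraries allow; 0.4 adjusted over 4 comparisons). Leaving out any 1 of the 6 libraries gave 10.5 to 12.2 points. WT 1 was also the library with 28.5 TPM of AC170998.1, a gene annotated within Mapk14 on the same strand that had no more than 3.79 TPM elsewhere. The division of reads between these 2 genes was not tested, and the difference without WT 1 was 12.0 points. Counting only transcripts with a mean of at least 1 TPM, a planned setting that drops Mapk13, the means were 16.5% in WT and 30.3% in SMA. That difference was 13.9 points (exact permutation p = 0.1). Counting protein-coding transcripts only, a setting chosen after the data were seen, the means were 24.2% in WT and 44.0% in SMA, a difference of 19.8 points (exact permutation p = 0.1).

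The other p38 genes had wider spreads in these shares. Mapk11 averaged 37.1% ± 6.73 in WT and 27.9% ± 6.42 in SMA, Mapk12 43.6% ± 4.62 and 39.3% ± 9.45, and Mapk13 2.96% ± 2.74 and 4.79% ± 3.96. Mapk12 was the leading p38 gene on average in every group at the gene level. The summed TPM of the 4 genes was 39.1 ± 8.66 in WT and 34.9 ± 8.29 in SMA, so the pool itself overlapped between the groups.

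None of the treatments was distinguished from SMA by the Mapk14 share. In the SMA+MW150 libraries it was 23.4%, 25.9% and 32.7%, in SMA+Pifithrin-alpha 26.6%, 28.1% and 28.8% and in SMA+SMN-C3 34.2%, 26.2% and 17.0%. The MW150 and Pifithrin-alpha libraries all lay above the highest WT library (17.7%), and SMN-C3 3 lay among the WT libraries. Differences from SMA were -0.603 points for MW150, -0.0723 for Pifithrin-alpha and -2.13 for SMN-C3 (exact permutation p = 0.9, 0.9 and 0.7; adjusted over the 4 comparisons 0.9 each). With transcripts of a mean of at least 1 TPM, these differences were -2.75, -1.29 and -3.93 points. With protein-coding transcripts only, they were 2.91, 2.38 and -6.90 points.

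**Figure D3:**
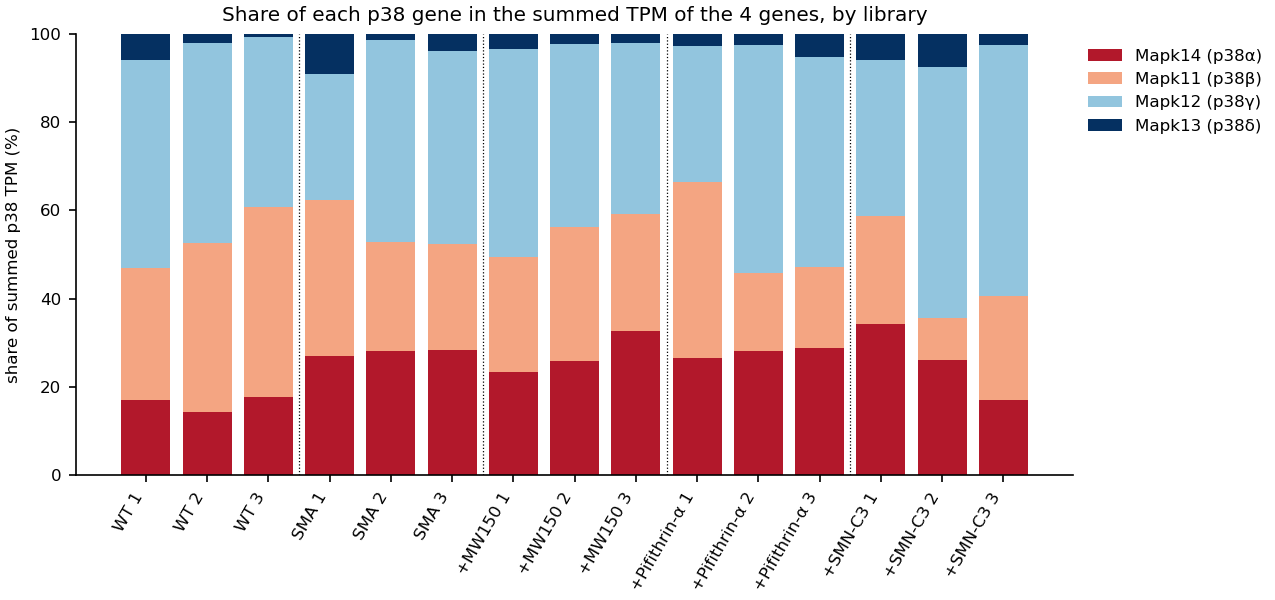
Share of each p38 gene in the summed TPM of Mapk14, Mapk11, Mapk12 and Mapk13 in each of the 15 libraries; a bar adds up to 100%. The Mapk14 share is 14.3% to 17.7% in the 3 WT libraries and 27.0% to 28.5% in the 3 SMA libraries, and spreads from 17.0% to 34.2% in SMA+SMN-C3.

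The gene values hide which transcripts were counted, and this differed between the p38 genes. Protein-coding transcripts carried 90.0% of the Mapk14 TPM over the 15 libraries and 75.3% of the Mapk11 TPM. For Mapk12 they carried 31.4%, ranging from 6.24% to 65.0% between libraries, and the leading transcript, Mapk12-203, is annotated as a retained intron (40.3%). For Mapk13 they carried 21.4%, and the leading transcript, Mapk13-203, is annotated as a target of nonsense-mediated decay (48.2%). Mapkapk3 stood at 60.6% protein-coding, and the remaining 5 genes at 91.4% to 100%. Single libraries differed widely for other genes than Mapk12 too: from 36.1% to 100% for Mapk11, and from 0% to 100% for Mapk13, Mapkapk3 and Map2k6. The order of the p38 genes thus depends on the transcripts taken: over protein-coding transcripts only, Mapk14 rather than Mapk12 had the largest mean share in SMA (44.0%).

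Of the 63 transcripts of the 10 genes in the transcript table, 27 passed the low-value filter. None was called in SMA vs WT, against 0.221% of 41719 tested transcripts, and none in SMA+MW150 vs SMA, against 0.00240% (limma). At an unadjusted p under 0.05 there were 2 of 27 in each comparison, against 12.2% and 4.52% of all tested transcripts. In SMA vs WT these were both Mapkapk3 transcripts: the protein-coding Mapkapk3-201 (log2 1.85, SE 0.46, limma adjusted p 0.153) and Mapkapk3-204 (log2 1.21, SE 0.50, adjusted p 0.375). Mapkapk3-201 was at 0, 1.03 and 0.0165 TPM in the WT libraries and at 7.73, 2.77 and 1.97 TPM in SMA. In SMA+MW150 vs SMA they were Mapk14-207 (log2 1.29, SE 0.53) and Mapk12-205 (log2 1.22, SE 0.46), with limma adjusted p of 1 and 0.985. Neither is annotated as protein-coding: Mapk14-207 is a retained intron and Mapk12-205 a processed transcript. Mapk14-207 was at 0 TPM in every SMA library and at 0.482, 1.43 and 3.07 TPM with MW150.

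Mapk14 transcripts with the downstream ninth exon (Mapk14-201) were at 0.124, 4.02 and 3.12 TPM in the WT libraries and at 4.77, 6.21 and 5.64 TPM in SMA. All SMA libraries lay above the WT libraries, and WT 1 was nearly without this form, in the library with 28.5 TPM of AC170998.1 (limma log2 1.19, SE 0.60, adjusted p 0.434). Transcripts with the upstream exon were at 4.97, 1.79 and 3.66 TPM in the WT libraries and at 2.51, 3.49 and 4.66 TPM in SMA, overlapping throughout. The downstream form thus took 2.43%, 69.2% and 46.1% of both forms in WT and 65.6%, 64.0% and 54.8% in SMA, a difference of 22.2 points that the spread of the WT libraries covers (exact permutation p = 0.4, adjusted over 4 comparisons 1). The downstream share was 83.0%, 54.6% and 52.5% in SMA+MW150, 94.4%, 34.5% and 50.9% in SMA+Pifithrin-alpha and 68.5%, 57.5% and 42.4% in SMA+SMN-C3. Differences from SMA were 1.93, -1.53 and -5.30 points (exact permutation p = 1, 0.9 and 0.7). Each single library favoured 1 form to a different degree, and assignments of reads to such similar transcripts are estimates.

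**Figure D4:**
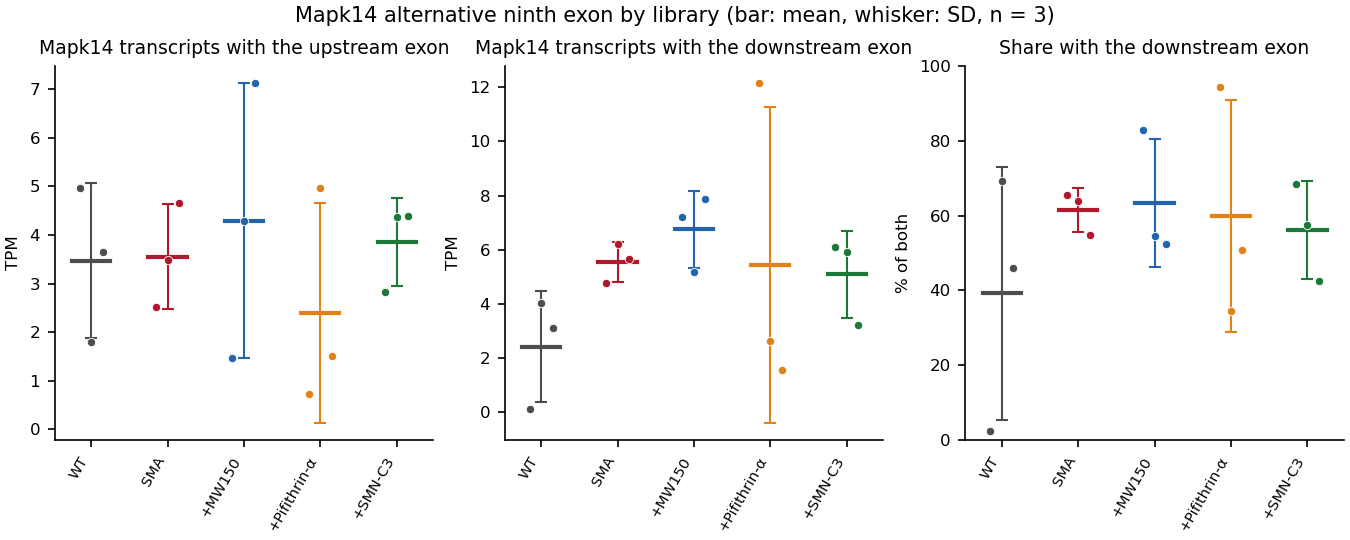
TPM of Mapk14 transcripts with the upstream and the downstream ninth exon, and the downstream share, by library (points), with group mean (bar) and SD (whisker, n = 3). The downstream form is at 4.77 to 6.21 TPM in SMA and at most 4.02 TPM in WT, while its share ranges from 2.43% to 69.2% within WT alone.

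Pifithrin-alpha and SMN-C3 were given against other targets, p53 and SMN2 splicing, and their effect on p38 activity was not tested here. Their comparison with SMA shows how the same genes stood under 2 other treatments that share the SMA controls. With Pifithrin-alpha none of the 10 genes was called (limma; 0.00648% of all tested genes), 0 of 10 had an unadjusted p under 0.05 (10.7% of all genes) and 0 of 10 had groups that did not overlap (15.3%). The 3 libraries of this group were far apart: Mapk14 was at 14.1, 7.58 and 3.78 TPM and Mapk11 at 21.1, 4.78 and 2.41 TPM, lowest in both cases in library 3 with its high mitochondrial share. Without the 4 libraries above 10% mitochondrial TPM, which leaves 1 Pifithrin-alpha library, the Mapk14 change from SMA went from -0.31 to 0.51 and that of Mapk11 from -0.46 to 1.08. Dusp1 was at 33.6, 19.4 and 14.4 TPM, and its log2 change from SMA was 0.01 (SE 0.34, limma adjusted p 0.993).

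With SMN-C3 none of the 10 was called (limma; 0.0648% of all tested genes). Mapkapk3 was the 1 of 10 with an unadjusted p under 0.05 (8.53% of all genes) and the 1 of 10 whose groups did not overlap (20.7%). Mapkapk3 was listed at 0 TPM in SMN-C3 1 and was at 0.103 and 1.73 TPM in the other 2, all below the 1.97 to 11.3 TPM of SMA. The log2 change was -2.02 (SE 0.54, 95% interval -3.15 to -0.89, unadjusted p 0.00157, limma adjusted p 0.227). Microglia markers summed to 80.2 to 103.7 TPM with SMN-C3, below the 150 to 174.8 TPM of SMA. Of these markers 0 of 10 were higher than in SMA, beside 26.6% of all tested genes. With MW150 the microglia markers summed to 111 to 145 TPM (2 of 10 higher, beside 57.9% of all tested genes). With Pifithrin-alpha they summed to 63.4 to 118 TPM (0 of 10 higher, beside 34.4% of all tested genes). Both ranges also lay below SMA, and Mapkapk3 averaged 3.06 and 3.12 TPM there, against 0.610 TPM with SMN-C3. Oligodendrocyte lineage markers were also higher for 0 of 10, at 689 to 2021 TPM with SMN-C3 against 951 to 4683 TPM in SMA, and astrocyte markers were higher for 2 of 7. Motor neuron markers were higher with SMN-C3 for 7 of 8, vascular markers for 1 of 7 tested and spinal interneuron markers for 0 of 4 tested. The part of these cells in the Mapkapk3 values was not tested here either. Mapk14, at 11.5, 11.2 and 7.61 TPM, had a log2 change of 0.05 (SE 0.40, 95% interval -0.80 to 0.90), and Dusp1, at 16.1, 15.7 and 19.9 TPM, one of -0.28 (SE 0.34, limma adjusted p 0.871).

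Set against WT, which served as the control for all 3 treated groups, the 10 genes were again not called. For SMA+MW150 vs WT the count was 0 of 10 (0.143% of all tested genes, limma), with 3 of 10 at an unadjusted p under 0.05 (10.2% of all genes) and 3 of 10 without overlap (19.9%). These were Mapk14, Map2k3 and Mapkapk3, all higher with MW150. Their log2 changes were 0.86 (SE 0.40, adjusted p 0.488), 1.05 (SE 0.49, adjusted p 0.488) and 1.60 (SE 0.54, adjusted p 0.421). For SMA+Pifithrin-alpha vs WT 0 of 10 were called (0.117%), while 1 of 10, Mapkapk3, had an unadjusted p under 0.05 (5.78%) and was without overlap (6.87%), with a log2 change of 1.50 (SE 0.54, limma adjusted p 0.741). For SMA+SMN-C3 vs WT 0 of 10 were called (0.0194%), 0 of 10 had an unadjusted p under 0.05 (7.31%) and 0 of 10 were without overlap (12.8%). Mapkapk3 then differed from WT by 0.11 (SE 0.54, 95% interval -1.02 to 1.25). Group means of Mapkapk3 thus ordered as WT (0.403 TPM), SMN-C3 (0.610), MW150 (3.06), Pifithrin-alpha (3.12) and SMA (5.92), where WT and SMN-C3, and again MW150 and Pifithrin-alpha, differ by less than their spread. SMA, at 1.97 to 11.3 TPM (SD 4.81), overlapped with both MW150 and Pifithrin-alpha.

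The wider pathway was read from a list of 88 other genes in 7 roles, of which 80 passed the low-value filter. None of the 80 was called in any of the 7 comparisons (0.363% of all tested genes in SMA vs WT). In SMA vs WT 12 of 80 had an unadjusted p under 0.05 (13.5% of all tested genes), 10 higher and 2 lower, and 18 of 80 (22.5%) did not overlap (18.3% of all tested genes), 15 higher and 3 lower. Both counts lie near the share of all genes. The log2 change was positive for 58 of 80 (72.5%, beside 66.5% of all tested genes), with a median of 0.30 beside 0.24 for all genes. By role, the median was 0.66 for 12 induced stress and immediate early genes, 0.39 for 9 related MAP kinases, 0.34 for 14 phosphatases, 0.31 for 15 other substrates, 0.18 for 5 substrate kinases, 0.10 for 14 upstream kinases and 0.04 for 11 adaptors and regulators of the upstream kinases.

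The 3 list genes with the highest log2 change in SMA vs WT were Fos, Ppm1d and Trp53. Fos, an immediate early gene, was at 8.11, 12.7 and 27.7 TPM in the WT libraries and at 49.8, 37.3 and 40.3 TPM in SMA, without overlap (log2 1.50, SE 0.36, limma adjusted p 0.108). It was called only without WT 3, the highest WT library (log2 1.95, adjusted p 0.0140), among the alternatives run. Ppm1d, which encodes the WIP1 phosphatase that inactivates p38 and p53, was at 1.78, 4.25 and 3.37 TPM in the WT libraries and at 11.95, 9.86 and 7.68 TPM in the SMA libraries (log2 1.42, SE 0.40, adjusted p 0.182). Trp53, a p38 substrate gene in this list, had a log2 change of 1.35 (SE 0.36, limma adjusted p 0.153), and was called without the 4 libraries above 10% mitochondrial TPM (log2 1.30, adjusted p 0.0270). The 3 lowest were Tab3, a partner of the kinase TAK1 (-1.05, adjusted p 0.315), Gadd45b, whose product activates a MAP3 kinase upstream of p38 (-0.93, adjusted p 0.369), and the kinase gene Taok1 (-0.66, adjusted p 0.375). WT 1 stood out for Tab3 (14.8 TPM against 4.81 and 4.88 TPM) and Taok1 (30.5 TPM against 14.3 and 15 TPM).

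Under MW150 vs SMA 2 of the 80 list genes had an unadjusted p under 0.05, both higher (1.90% of all tested genes), and 9 of 80 (11.2%) did not overlap, all higher, near the 10.9% of all tested genes. The list median was 0.09 beside 0.06 for all genes. Gadd45b had the highest change: it was at 7.50, 2.77 and 8.93 TPM in SMA and at 12.0, 15 and 15.8 TPM with MW150, inside the WT range of values, 7.62, 13.4 and 16.8 TPM (log2 1.15, SE 0.43, unadjusted p 0.0152, limma adjusted p 1). With SMN-C3 it was at 11.7, 16.9 and 13.7 TPM, also above SMA (log2 1.13, SE 0.43, limma adjusted p 0.482). With Pifithrin-alpha Gadd45b was at 10.9, 11.3 and 3.99 TPM, overlapping with SMA. Mapk8, which encodes JNK1, followed with 0.84 and the chemokine gene Ccl2 with 0.76, the latter at 5.71 TPM in 1 MW150 library and at most 1.36 TPM in the other 2. The lowest changes were those of the phosphatase genes Ppm1d (-0.80) and Dusp4 (-0.39) and of Map3k6, the gene of the ASK1 relative ASK2 (-0.35). Ppm1d was at 3.08, 8.35 and 5.03 TPM with MW150 (limma adjusted p 1) and at 2.45, 1.88 and 3.52 TPM with SMN-C3, below all SMA libraries (log2 -1.59, SE 0.40, adjusted p 0.192). With Pifithrin-alpha it was at 6.89, 2.68 and 4.18 TPM, also below all SMA libraries.

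Among all list genes and comparisons the lowest limma adjusted p was 0.0825, for Map3k20 in SMA+MW150 vs WT (log2 1.47, SE 0.31). Map3k20 encodes ZAK, a MAP3 kinase that senses stalled ribosomes and feeds into p38. Its level was 1.36, 1.45 and 1.72 TPM in the WT libraries, 4.69, 4.38 and 4.97 TPM in SMA and 7.95, 4.88 and 5.36 TPM with MW150. It was 6.49, 4.86 and 4.98 TPM with Pifithrin-alpha and 3.53, 2.17 and 2.22 TPM with SMN-C3. The WT values lay below all others in this set, and the SMA change from WT was 1.18 (SE 0.31, adjusted p 0.150).

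**Figure D5:**
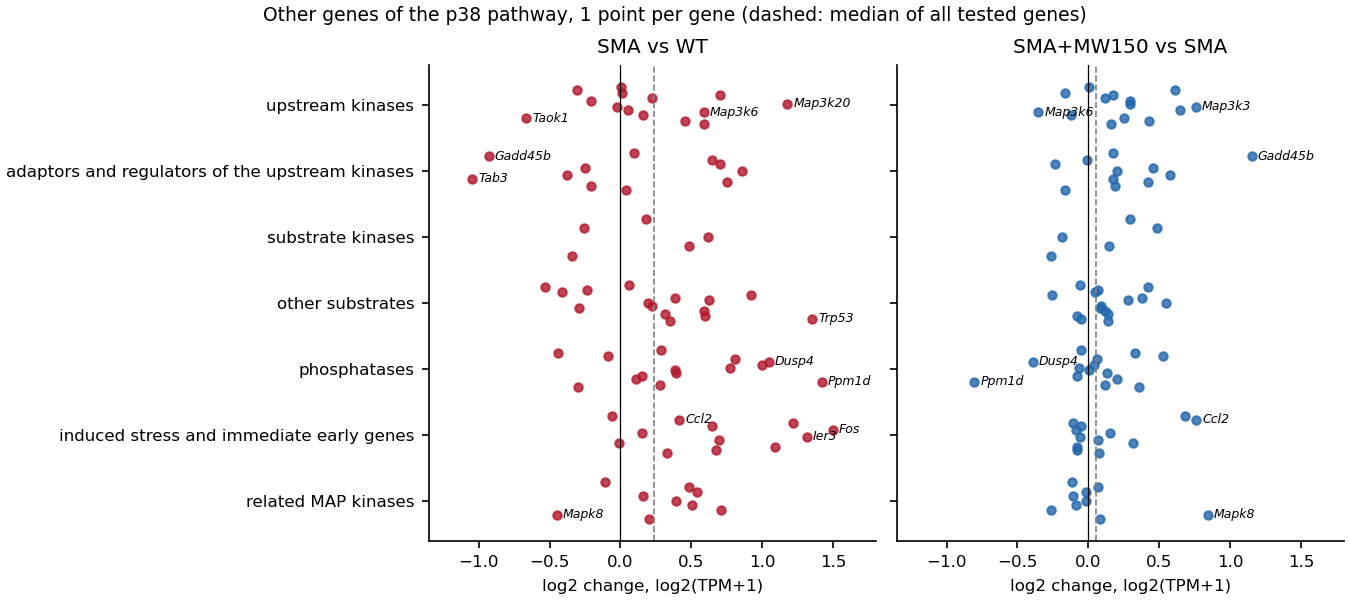
limma log2 change of the 80 tested list genes by role, 1 point per gene, in SMA vs WT and in SMA+MW150 vs SMA; the dashed line is the median of all tested genes. Fos (1.50), Ppm1d (1.42) and Trp53 (1.35) are farthest to the right in SMA vs WT, and Gadd45b goes from -0.93 in SMA vs WT to 1.15 in SMA+MW150 vs SMA, 2 comparisons that share the SMA libraries.

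Genes whose level followed that of Mapk14 or Dusp1 were sought by Pearson's r of log2(TPM+1) over the 15 libraries, as a description, among the other genes with a mean of at least 10 TPM (7784 for Mapk14 and 7783 for Dusp1). Closest to Mapk14 were Prr14 (r 0.888), Tnk2 (0.880), Gm46223 (0.876), Tab1 (0.871) and Pusl1 (0.868). Tab1 encodes a protein known to bind p38α and to promote its autophosphorylation. Tab1 was at 4.26, 6.97 and 9.25 TPM in the WT libraries and at 8.60, 13.7 and 17.1 TPM in SMA. Closest to Dusp1 were Hgsnat (0.928), Mapk10, which encodes JNK3 (0.898), Prepl (0.892), Pcyox1 (0.877) and Tmem127 (0.869). Among the 10 genes, the highest r was that of Map2k3 with Mapkapk2 (0.858), then Mapk14 with Mapkapk2 (0.758). The 15 points share the library differences described above.

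The genes lie on GRCm38 as follows, by the GENCODE M21 annotation. Mapk14 (ENSMUSG00000053436.15) is at chr17:28691329-28748406 on the plus strand, with Mapk13 downstream of it on the same strand at chr17:28769297-28780233. Mapk12 (chr15:89130584-89140703) and Mapk11 (chr15:89142486-89149628) are also neighbours, both on the minus strand. AC170998.1 lies within Mapk14 on the same strand. Dusp1 (chr17:26505590-26562128, minus strand, as annotated) overlaps Ergic1 and a pseudogene on the other strand and 2 small genes on its own. Whether strand was used in quantification is not given in the sources used here. Mapkapk2 (chr1:131053700-131097826, minus strand) overlaps 2 small genes on its own strand. The remaining genes overlap no other annotated gene.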

How the data were processed

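RNA of laser-captured motor neurons was sequenced in 15 libraries, 3 for each of 5 groups, and each library was placed in its group by its GEO labels. The authors deposited TPM per transcript and per gene, made with kallisto 0.44.0 against GRCm38.p6 or mm10, per the submitters' processing notes. Each member's gene TPM was the sum of its transcripts' TPM (150 of 150 values within 1%). The annotation release is not given in the sources used here: 116728 of 118489 transcript identifiers (98.5%) were found in GENCODE M21, which gave the names, positions and sequences. The files used here hold no counts, so depth and sampling error per value are unknown. kallisto divides reads among similar transcripts, so transcript values and those of overlapping genes are estimates.

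Tests used limma 3.58.1 in R 4.3.3 on log2(TPM+1), with an intensity trend, a mean per group over all 15 libraries, a low-value filter that keeps genes reaching 1 TPM in 3 libraries or more, and Benjamini-Hochberg adjustment within each of 7 comparisons. A fold change on this scale understates that of low genes. The Mapk14 and exon shares had exact two-sided permutation tests (scipy 1.17.1). Data handling and drawing used Python 3.11.15, pandas 2.3.3 and matplotlib 3.10.9, and the limma steps were tested on simulated data. Replicates are described as biological in the labels, which do not tie numbers across groups.

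The 10 members and the pathway and marker lists were chosen with earlier results of these data known. Named besides the members were Smn1, any list gene called, the 3 list genes with the highest and the 3 with the lowest change in SMA vs WT and in SMA+MW150 vs SMA, and the 5 genes closest to Mapk14 and to Dusp1 in correlation. Map3k20, AC170998.1, the further values of Gadd45b and Ppm1d with SMN-C3 and those of Ppm1d with Pifithrin-alpha were named after their values were seen. Alternatives tried were another pseudocount, other filters, median-of-ratios scaling, TPM without mitochondrial genes, a fit of only the 2 groups compared, a replicate block and leaving out each library. For the Mapk14 share, counting only transcripts with a mean of at least 1 TPM was also planned. Added after the data were seen were protein-coding transcripts only, leaving out the 4 libraries above 10% mitochondrial TPM, and all alternatives for Smn1 and the pathway list genes.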

Additional observations from a re-analysis of the deposited data

How the results depend on the processing

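Over 7 comparisons, the 10 genes gave 770 alternative values. None was called under any of them (lowest limma adjusted p 0.0602), 698 kept their sign and 72 turned it. With a replicate block, SMA vs WT called 48 genes against 56 without, the other comparisons stayed within 1.5 times, and no call of a member turned. Same-numbered libraries deviated together with r over 0.1 in 4 of 30 pairs (r from -0.34 to 0.29), against 16 of 60 for different numbers. Deviations from means of only 3 libraries cannot decide whether the numbers pair the libraries, which the labels do not state.

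By setting, 8 values turned under median-of-ratios scaling, 2 without mitochondrial genes, 12 without the 4 libraries above 10% mitochondrial TPM and 50 with 1 library left out. Given here are those among the values reported in the text, and the cause was not tested. Median-of-ratios scaling gave Dusp1 -0.0086 in SMA vs WT and -0.072 in SMA+MW150 vs SMA, and removing mitochondrial genes gave Map2k3 0.0034 in the latter. Without the 4 libraries above 10% mitochondrial TPM, SMA vs WT gave -0.0046 for Dusp1 and -0.15 for Map2k6, SMA+Pifithrin-alpha vs SMA 0.51 for Mapk14 and 1.08 for Mapk11, and SMA+SMN-C3 vs SMA -0.050 for Mapk14. Leaving out 1 library in turn gave, in SMA vs WT, -0.15 to 0.73 for Map2k6, -0.0046 to 0.48 for Dusp1 and -0.56 to 0.050 for Mapk12. In SMA+MW150 vs SMA it gave -0.50 to 0.11 for Mapk13, -0.32 to 0.38 for Map2k3, -1.02 to 0.0020 for Mapkapk3, -0.26 to 0.060 for Mapkapk2, -0.24 to 0.17 for Dusp1 and -0.63 to 0.0016 for Map3k6. In SMA+Pifithrin-alpha vs SMA it gave -0.73 to 0.10 for Mapk14, -1.23 to 0.12 for Mapk11 and -0.31 to 0.27 for Dusp1. Mapk14 ranged from -0.13 to 0.22 in SMA+SMN-C3 vs SMA, and Mapkapk3 from -0.34 to 0.43 in SMA+SMN-C3 vs WT.

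The difference in the Mapk14 share ranged over left-out libraries from -3.27 to 1.35 points with MW150, from -0.545 to 0.544 with Pifithrin-alpha and from -6.34 to 2.28 with SMN-C3. With transcripts of a mean of at least 1 TPM it was -2.75 and -1.29 points for MW150 and Pifithrin-alpha. With protein-coding transcripts only it was 2.91 and 2.38 points for these 2 treatments.

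Counts of genes called over the whole table moved more. SMA vs WT called 56 genes, but 16 in the fit of the 2 groups alone, 35 with no filter, 103 without the 4 libraries and 20 to 56 with 1 left out. SMA+MW150 vs SMA called 1, but 0 with a mean filter of 5 TPM or a pseudocount of 0.1, 2 in the fit of 2 groups or with no filter, and 0 to 1 with 1 left out. SMA+Pifithrin-alpha vs SMA called 1, but 0 with the mean filter, the small pseudocount or the fit of 2 groups, 3 with no filter, and 0 to 1 with 1 left out. SMA+SMN-C3 vs SMA called 10, but 4 with the mean filter, 21 in the fit of 2 groups, 53 without the 4 libraries and 0 to 11 with 1 left out. Against WT, MW150 called 22 (13 with no filter, 39 without the 4 libraries, 9 to 22 with 1 left out). Pifithrin-alpha called 18 (0 in the fit of 2 groups, 6 with no filter, 8 without the 4 libraries, 5 to 30 with 1 left out). SMN-C3 called 3 (5 after median-of-ratios scaling, 12 without the 4 libraries, 2 to 8 with 1 left out). With 3 libraries a group and no counts in the tables, the intervals of most members span both directions.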
